A study of Homo sapiens with 18 samples.

Results

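A low dose of rotenone, 5 nM, was given to SK-N-MC cells over 1 week, and these cells were set against vehicle-treated cells of the same week. The comparison took every array that the labels place in these 2 conditions, which was 6 of the 18 arrays of the series. The 3 arrays labelled 1w5nM held cells kept in 5 nM rotenone for 1 week, a dose the labels call non-lethal for this line. The 3 arrays labelled 1w0nM held cells kept for 1 week in the ethanol vehicle alone (0.05%). SK-N-MC is an established human tumour line labelled as a neuroepithelioma, and all groups shared this genotype and a medium without pyruvate. The work was done as 3 experiments, and each array carried RNA pooled from 5 dishes. The p-values rest on a single spread per gene between such pools, shared by all groups and not that of the compared groups alone. The other arrays were 1w50nM (50 nM for 1 week) and the vehicle, 5 nM and 50 nM groups of 4 weeks, with 3 arrays each. They entered the fit only to estimate the spread, apart from the values of 1w50nM and of the 4-week vehicle arrays (4w0nM) given beside some genes.

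Rotenone is a plant-derived pesticide that blocks electron transfer in complex I of the mitochondrial respiratory chain and also destabilizes microtubules. It is widely used to model Parkinson disease in animals and in cultured cells. Cells that sense a shortage of amino acids or a fault in mitochondria or in the endoplasmic reticulum commonly raise the transcription factor ATF4 and its partner CHOP, which switch on genes of amino acid synthesis and transport. SK-N-MC cells carry the EWS-FLI1 fusion of Ewing family tumours, a factor known to activate some neural genes and to repress matrix genes.

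The Affymetrix human expression arrays gave a model-based expression index for 22283 probe sets, called the signal here, on a linear scale. Median signals of the 6 arrays lay between 87.0 and 99.2, and between 16.7% and 18.3% of the probe sets lay below 16, the value used as a floor before taking log2. In all, 9162 genes reached a signal of 50 on at least 3 arrays and were tested, each by a single probe set. The number of arrays, not a read depth, limits the precision. The median SE of a log2 fold change was 0.17. Folds are those of mean log2 signals, so they can differ from ratios of the arithmetic means.

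The vehicle arrays of 1 week stood apart from all other groups by their spread. Across the 9162 genes the median SD of the log2 signal was 0.25 in 1w0nM, against 0.14 in 1w5nM, and 14.96% of genes ranged over more than 2-fold among the 3 vehicle arrays, against 1.28% among the 3 rotenone arrays. In the other 4 groups that share was between 0.513% and 3.90%. Vehicle replicate 3 was at least 2-fold below the mean of the other vehicle arrays for 755 genes and at least 2-fold above it for 169. For replicate 2 these counts were 104 and 342, and for replicate 1 they were 44 and 76. The p-values use a spread shared by all groups, which takes in groups that vary less than 1w0nM. When limma weighted arrays by how far they strayed from their group, vehicle replicates 1 and 3 had the lowest weights of all, 0.096 and 0.124. Results that rest on the vehicle arrays are therefore given with and without them. The labels of 1w5nM replicate 2 and 1w50nM replicate 3 may be exchanged, since published lists of this comparison match the deposited arrays better when these trade places. The deposited labels were kept, and the counts with the arrays exchanged are given with the other counts.

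The label of the line was checked against its markers. Of the 5 Ewing family genes listed, 4 were measured and all were high. CD99, a surface glycoprotein used to recognise these tumours, had signals of 3043, 3459 and 2867 on the 1w5nM arrays, against 2802, 3409.8 and 2249.8 on the 1w0nM arrays. The homeobox factor NKX2-2 had 1484, 1621 and 1389 in 1w5nM, against 1303, 1618 and 816 in 1w0nM, with its lowest signal on vehicle replicate 3. Of the neuronal markers only the beta-tubulin TUBB3 was high, with 2792, 2779 and 2523 in rotenone and 2248, 1839 and 1378 in vehicle. GAP43, MAP2 and NEFL were dim, with mean signals of 103, 57.9 and 51.7 in 1w5nM and 118, 48.0 and 40.4 in 1w0nM. STMN2 and NEFM did not pass the filter, and of the 7 sympathetic markers 3 did. Of markers of other cell types, 1 of 5 endothelial, 2 of 6 leukocyte, 1 of 5 skeletal muscle and 2 of 4 epithelial genes passed the filter, against 11 of 12 fibroblast genes. The leukocyte phosphatase PTPRC had signals of 442, 270.5 and 459 in 1w5nM and 745, 1061 and 63.6 in 1w0nM. Its vehicle signals spanned the rotenone signals on either side, and it was not called.

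Of the 9162 genes, 604 (6.59%) differed at an adjusted p under 0.05 in limma with Benjamini-Hochberg adjustment. They comprised 456 genes that were higher (4.98%) and 148 that were lower (1.62%) in 1w5nM than in 1w0nM. A change of at least 2-fold was reached by 107 of the higher genes (1.17% of those tested) and by 12 of the lower ones (0.131%). Most calls were small, with a median of 1.70-fold among the higher and 1.53-fold among the lower genes. The 2 groups of arrays did not overlap for 454 of the 456 higher and 146 of the 148 lower genes, and over all genes tested they did not overlap in 15.7% upward and 8.56% downward. With the spread estimated from the 6 arrays alone, 32 genes were higher and 4 lower, all among the 604. The split between higher and lower depended on scaling. With quantile normalization 391 were higher and 292 lower, and with each array scaled to a common median 321 were higher and 289 lower. The median log2 fold change over all genes was 0.07 as deposited, -0.002 after quantile normalization and -0.01 after median scaling. The reference genes GAPDH, ACTB and B2M did not pass the test, with log2 fold changes of 0.07, 0.13 and 0.11.

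The number of calls turned on single arrays. Without vehicle replicate 1 there were 431 higher and 99 lower genes, without replicate 2 there were 642 and 133, and without replicate 3 there were 586 and 417. Leaving out replicate 3 thus raised the count of lower genes most, to 417 against 148 with all arrays. Of the 604 calls, 323 (53.5%) held with each vehicle array left out in turn, 257 of them higher and 66 lower. With each of the 6 arrays left out in turn 163 held (133 higher and 30 lower). The largest loss came without 1w5nM replicate 2, which left 151 higher and 41 lower genes, of which 187 were among the original 604. With a single vehicle array as the only reference, the counts were 170 higher and 34 lower against replicate 1, 419 and 313 against replicate 2, and 1891 and 355 against replicate 3. Only 81 genes were called against each of the 3 on its own. With 1w5nM replicate 2 and 1w50nM replicate 3 exchanged, 305 genes were higher and 145 lower, and 403 of these were shared with the original calls in direction and name.

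**Figure D1:**
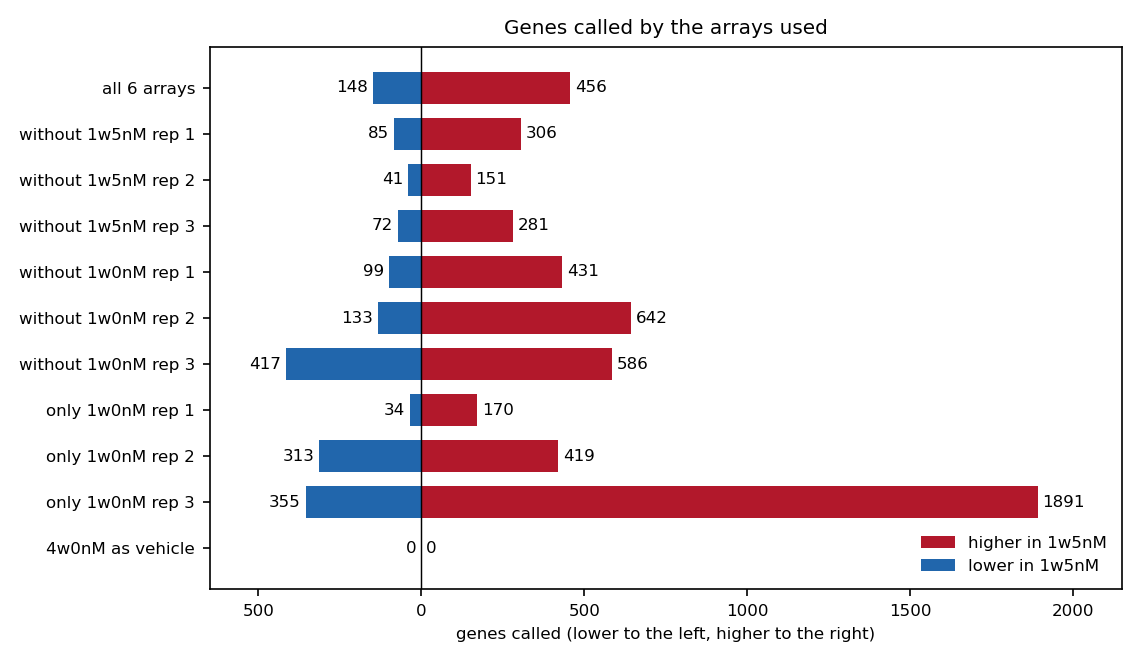
Number of genes called higher (right, red) and lower (left, blue) in 1w5nM with all 6 arrays, with each array left out, with each vehicle array as the only one, and with the 4-week vehicle arrays in place of those of 1 week. Replicate 3 as the only vehicle array gave 1891 higher genes, against 170 with replicate 1, and the 4-week vehicle arrays gave 0.

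With the 4-week vehicle arrays as the reference in place of those of 1 week, limma called 0 genes in either direction, and 256 had an unadjusted p under 0.05. The rotenone arrays were the same in both fits. Duration and vehicle pool differ together between 4w0nM and 1w0nM, and their parts cannot be told apart. The mean of the 4w0nM arrays is given below for some genes only. As 0 genes were called against 4w0nM, this limit holds equally for genes without such a mean.

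NPTX2, TNC, NMU, DLK1 and CYTL1 had the largest rises. The counts of each gene list are given beside the shares over all 9162 genes, of which 4.98% were higher and 1.62% lower. Of 19 measured neuropeptides and granule proteins, 5 were higher and 0 lower, with a median log2 fold change of 0.27. NPTX2, a pentraxin secreted at excitatory synapses, had signals of 266, 204 and 274 on the 1w5nM arrays, against 42.8, 6.49 and 15.7 on the 1w0nM arrays. Every rotenone signal was above every vehicle signal, and on vehicle replicates 2 and 3 the gene lay under the floor. It was at least 11.1-fold higher (log2 3.47, SE 0.47, limma adjusted p = 2.72e-04). The neuropeptide NMU, known for its action on smooth muscle and feeding, had 169, 234 and 208 in 1w5nM, against 34.5, 26.3 and 26.4 in 1w0nM. Its vehicle arrays lay close together, and the rise of 7.0-fold (log2 2.81, SE 0.18, limma adjusted p = 6.64e-08) stayed between 2.74 and 2.94 on the log2 scale when a vehicle array was left out. The secreted cytokine-like protein CYTL1 had 473, 459 and 403 in rotenone and 88.4, 34.5 and 95.6 in vehicle. Vehicle replicate 2 was the lowest, and without it the log2 change was 2.27, against 2.74 with all arrays. Galanin, encoded by GAL, had signals of 256, 259 and 248 in 1w5nM and 114, 98.1 and 134 in 1w0nM and rose 2.22-fold (limma adjusted p = 0.00643). The 4-week vehicle means of these genes were 297 for NPTX2, 143 for NMU, 484 for CYTL1 and 221 for GAL, each nearer to the 1w5nM than to the 1w0nM mean.

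**Figure D2:**
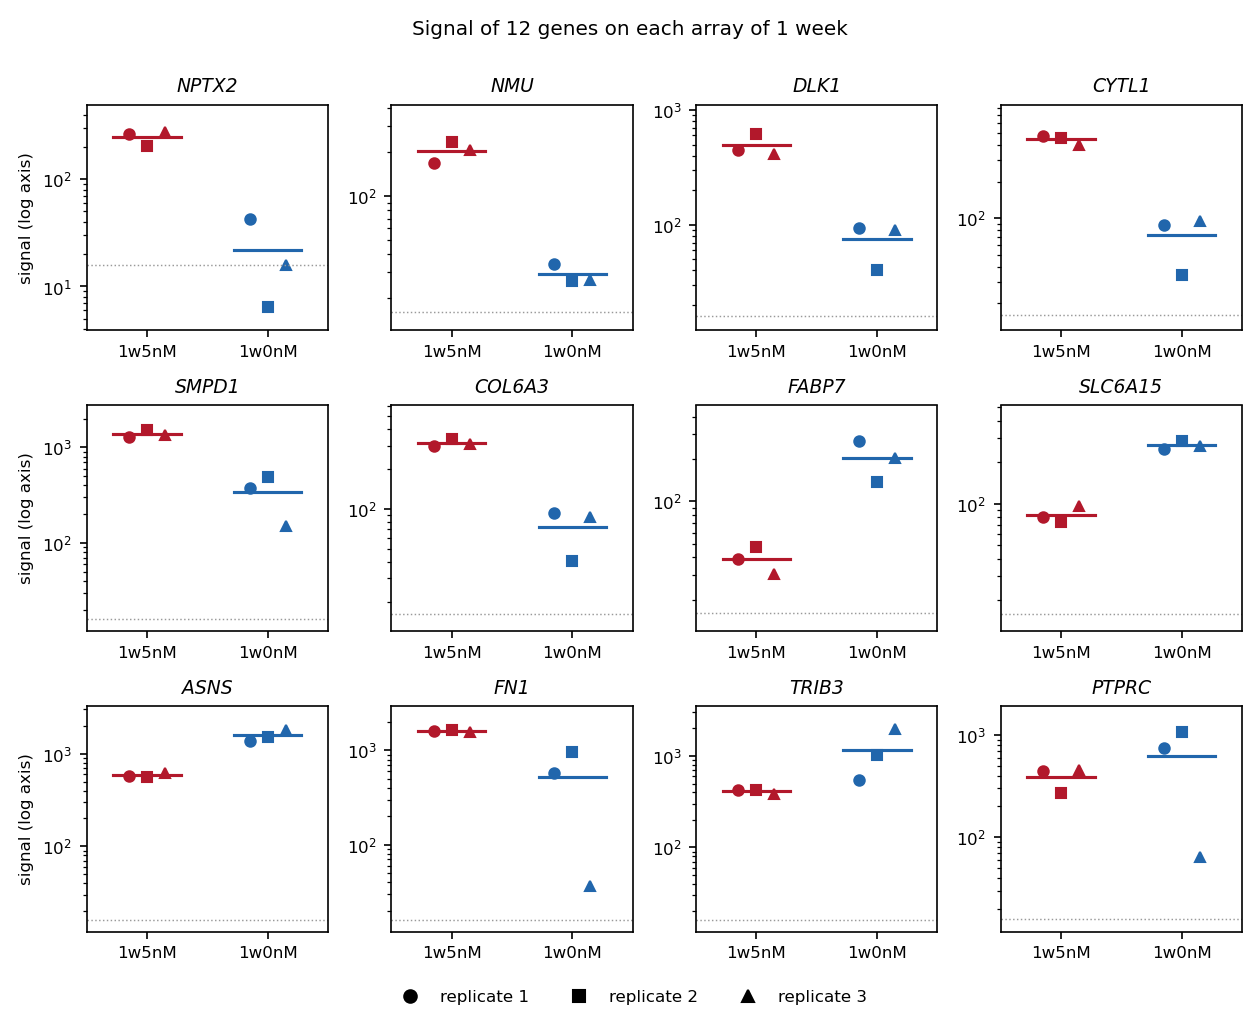
Signal of 12 genes on each array (log axis), 1w5nM in red on the left and 1w0nM in blue on the right of each panel, with a marker for each replicate, a bar at the arithmetic mean of the group and a dotted line at the floor of 16. The 3 rotenone arrays of NPTX2, NMU, SMPD1 and COL6A3 lie above every vehicle array, and in FN1 and PTPRC vehicle replicate 3 lies far below the other vehicle arrays.

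DLK1, an imprinted ligand of the Notch family that restrains differentiation, had signals of 443, 615 and 416 on the 1w5nM arrays, against 93.3, 40.4 and 90.6 on the 1w0nM arrays, a rise of 6.93-fold (limma adjusted p = 7.68e-06). MSX1, a homeobox factor of the neural crest, had 829, 1047 and 1002 in 1w5nM, against 323, 291 and 285 in 1w0nM. Its groups were well apart and its SE was small, giving a rise of 3.19-fold (log2 1.67, SE 0.13, limma adjusted p = 4.02e-07). SNAI2, the Slug repressor of epithelial genes, had 231, 218 and 242 in rotenone and 65.9, 106 and 31.2 in vehicle. Vehicle replicate 3 was lowest here, and leaving it out brought the log2 change to 1.46, against 1.93 with it. HES1, a Notch target, had signals of 938, 1094 and 912 in 1w5nM and 483, 762 and 265 in 1w0nM. The call for HES1 (limma adjusted p = 0.0149) was lost without 1w5nM replicate 2 and held in the other 5 fits with 1 array left out. In the imprinted gene list 3 of 14 were higher (DLK1, PHLDA2 and MEG3) and GRB10, an adaptor that dampens insulin receptor signalling, was lower. The list's median of -0.01 lay below that of all genes. With 1w5nM replicate 2 left out, the list had 1 higher and 1 lower gene.

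Of 49 measured collagens and matrix proteins, 16 were higher (32.7%, against 4.98% of all genes) and 0 lower, with a median log2 fold change of 0.51, beside 0.07 over all genes. With 1w5nM replicate 2 left out, limma called 10 genes of this list higher. Against the 4-week vehicle arrays the median of this list was 0.10 and 0 of its genes were called. TNC, the adhesion-modulating glycoprotein tenascin C, had signals of 273, 320.1 and 234 on the 1w5nM arrays, against 68.8, 48.1 and 12.7 on the 1w0nM arrays. The vehicle arrays spread widely, with replicate 3 under the floor, and TNC was 7.29-fold higher as a fold of mean log2 signals with that array set to 16 (limma adjusted p = 0.00114). COL6A3, a chain of the pericellular collagen VI, had 297, 335 and 309.5 in 1w5nM, against 93.2, 40.8 and 86.2 in 1w0nM, a rise of 4.55-fold (limma adjusted p = 4.25e-05). COL7A1, the anchoring fibril collagen, had 181, 274 and 206 in rotenone and 61.1, 58.6 and 73.1 in vehicle, with tight vehicle signals and a rise of 3.39-fold (limma adjusted p = 5.76e-05). The major fibrillar collagen COL1A1 had signals of 937, 1088 and 869 in 1w5nM and 482, 392 and 551 in 1w0nM and rose 2.04-fold. Fibronectin was different. FN1 had signals of 1623, 1637 and 1553 on the 1w5nM arrays, against 576, 954 and 36.9 on the 1w0nM arrays, so that the groups did not overlap, but it did not pass the test (limma adjusted p = 0.0769). Vehicle replicate 3 lay far below the other vehicle arrays. COL3A1 was similar, with 976, 832 and 998 in 1w5nM, against 774, 1248 and 43.9 in 1w0nM, and so was the proteoglycan LUM, with 121, 130.3 and 123 in rotenone and 142, 200.5 and 10.2 in vehicle. For COL3A1 and LUM replicate 3 alone lay far below the rotenone arrays, and neither gene was called.

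Among 27 measured matrix enzymes and protease inhibitors 7 were higher and 1 was lower. TIMP1, an inhibitor of metalloproteinases, had signals of 3059.9, 3008 and 3074 in 1w5nM and 1367, 1111 and 1308 in 1w0nM, a rise of 2.42-fold (limma adjusted p = 1.69e-04). LOXL1, which cross-links elastin, had signals of 217, 479 and 244 on the 1w5nM arrays, against 126, 41.4 and 170.1 on the 1w0nM arrays, and its call was lost without 1w5nM replicate 2. The lower gene was SERPINI1, the neuronal protease inhibitor neuroserpin, with 25.9, 54.4 and 44.6 in 1w5nM, against 96.0, 118 and 77.8 in 1w0nM. Of 26 actin and smooth muscle genes 8 were higher and 0 lower, with a median of 0.44. CALD1, the actin-binding caldesmon, had 302, 415 and 374 in rotenone and 91.6, 80.2 and 203 in vehicle, and TAGLN, the smooth muscle protein SM22, had signals of 85.3, 169 and 99.4 in 1w5nM and 33.9, 37.9 and 39.0 in 1w0nM. ACTA2, alpha smooth muscle actin, rose 2.25-fold (limma adjusted p = 2.54e-04). Galectins, annexins and S100 proteins had 5 higher of 17, led by LGALS1, a sugar-binding protein. LGALS1 had signals of 634, 675 and 615 on the 1w5nM arrays, against 122, 81.3 and 154 on the 1w0nM arrays. It rose 5.56-fold (limma adjusted p = 1.89e-07). These 3 lists leaned on 1w5nM replicate 2. When it was left out, limma called 2 matrix enzymes and inhibitors higher, 4 actin and smooth muscle genes and 1 gene of the galectin list.

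Markers of fibroblasts moved with these genes. Of 11 measured fibroblast markers, 5 were higher and 0 lower (COL1A1, COL1A2, COL6A3, PDGFRB and FAP), and 7 of the 11 are also in the matrix list. PDGFRB, the growth factor receptor of mesenchymal cells, had 179, 190.3 and 137 in 1w5nM, against 53.04, 43.9 and 43.4 in 1w0nM, a rise of 3.58-fold. The mean log2 signal of the list was 8.24 to 8.29 on the rotenone arrays, against 6.95 to 7.64 on the vehicle arrays, where replicate 3 was lowest. Without replicate 3 the median of the list was 0.35 in place of 0.82, and without replicates 1 and 2 in turn it was 0.85 and 0.84. Against the 4-week vehicle arrays it was 0.05. POSTN was below the filter. The epithelial keratin KRT8 had 199, 198 and 199 in rotenone and 71.5, 43.6 and 47.2 in vehicle, a rise of 3.76-fold (limma adjusted p = 9.40e-06). In pooled RNA a different share of such cells and a different level per cell cannot be told apart, and the part of cell composition in the matrix result was not tested.

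The largest falls were led by FABP7, the brain fatty acid-binding protein of radial glia. FABP7 had signals of 38.9, 47.4 and 30.7 in 1w5nM and 267, 137 and 205 in 1w0nM. No rotenone array came near a vehicle array, and the gene was 5.1-fold lower (log2 -2.35, SE 0.41, limma adjusted p = 0.00233). The neutral amino acid transporter SLC6A15 had signals of 80.1, 74.2 and 96.5 on the 1w5nM arrays, against 251, 286 and 263 on the 1w0nM arrays. Its vehicle arrays lay close together, and it was 3.21-fold lower (log2 -1.68, SE 0.27, limma adjusted p = 0.0012). BCAT1, which transfers the amino group of branched-chain amino acids, had 261, 179 and 220.1 in 1w5nM, against 513, 476 and 412 in 1w0nM and was 2.14-fold lower (limma adjusted p = 0.00618). Among the 15 largest falls, those of RGS16, GNA13, GRB14 and MIS12 held in 3 or fewer of the 6 fits with an array left out. RGS16, which shortens G protein signals, had 86.2, 96.2 and 89.0 in rotenone and 161, 182 and 357 in vehicle, with replicate 3 far above the other vehicle arrays. Without replicate 3 the adjusted p of RGS16 in limma was 0.0517, and its call held in 2 of the 6 such fits. GNA13, the G protein subunit alpha-13, had signals of 61.4, 40.6 and 71.6 in 1w5nM and 145, 183 and 79.2 in 1w0nM, so that here vehicle replicate 3 was nearest to the rotenone arrays. The calls for FABP7, SLC6A15, ASNS, PSAT1, BCAT1, CTH, ADPRM, MTHFD2L and WARS2 held in all 6 such fits.

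Targets of ATF4 and CHOP lay almost all on the lower side. Of 26 measured targets, 10 were lower (38.5%, against 1.62% of all genes) and 0 higher, 25 had a log2 fold change below 0, and the median was -0.74. The list was chosen with earlier results of these data known, so that its count is a description. ASNS, asparagine synthetase, had signals of 568, 561 and 621 on the 1w5nM arrays, against 1380.2, 1528 and 1813 on the 1w0nM arrays. The rotenone signals lay close together, all under the lowest vehicle signal, a fall of 2.68-fold (log2 -1.42, SE 0.24, limma adjusted p = 0.00163). PSAT1, an enzyme of serine synthesis, had 931, 647 and 1000.1 in 1w5nM, against 1881, 2214 and 1754 in 1w0nM and was 2.3-fold lower (limma adjusted p = 0.00105). CEBPG, which dimerizes with ATF4, had 271, 246 and 285 in rotenone and 444, 506 and 542 in vehicle and was 1.86-fold lower (limma adjusted p = 0.00344). ATF3, a factor induced by ATF4, had signals of 99.1, 109.8 and 100.01 in 1w5nM and 182, 216 and 147 in 1w0nM, and CHAC1, which degrades glutathione, had signals of 119, 131 and 121 on the 1w5nM arrays, against 242, 268 and 160.4 on the 1w0nM arrays. The cystathionine enzyme CTH, PSPH, the mitochondrial PCK2 and MTHFD2 and the tRNA exporter XPOT were the others called lower.

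CHOP itself and 2 other stress factors were not called. DDIT3, which encodes CHOP, had 549.7, 405 and 470.2 in 1w5nM, against 559, 965 and 2198 in 1w0nM. Vehicle replicate 1 was close to the rotenone arrays and replicate 3 was far above it, and the log2 change of -1.17 had an SE of 0.52 (limma adjusted p = 0.183). TRIB3, a pseudokinase induced by both factors, had 428, 421 and 388 in rotenone and 551, 1015 and 1953 in vehicle, in the same order of vehicle arrays (limma adjusted p = 0.158). ATF5 had signals of 519.7, 744 and 617 in 1w5nM and 916, 2644 and 1625 in 1w0nM, where replicate 2 was highest. Without vehicle replicate 1 the log2 change of ATF5 was -1.74 and was called. The count of lower targets was 12, 11 and 11 without vehicle replicates 1, 2 and 3 in turn, and 6 without 1w5nM replicate 2. The mean log2 signal of the list was 8.62 to 8.64 on the rotenone arrays and 9.11, 9.38 and 9.48 on vehicle replicates 1, 2 and 3. With the 4-week vehicle arrays as reference the median of the list was -0.10 and 0 targets were called by limma.

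**Figure D3:**
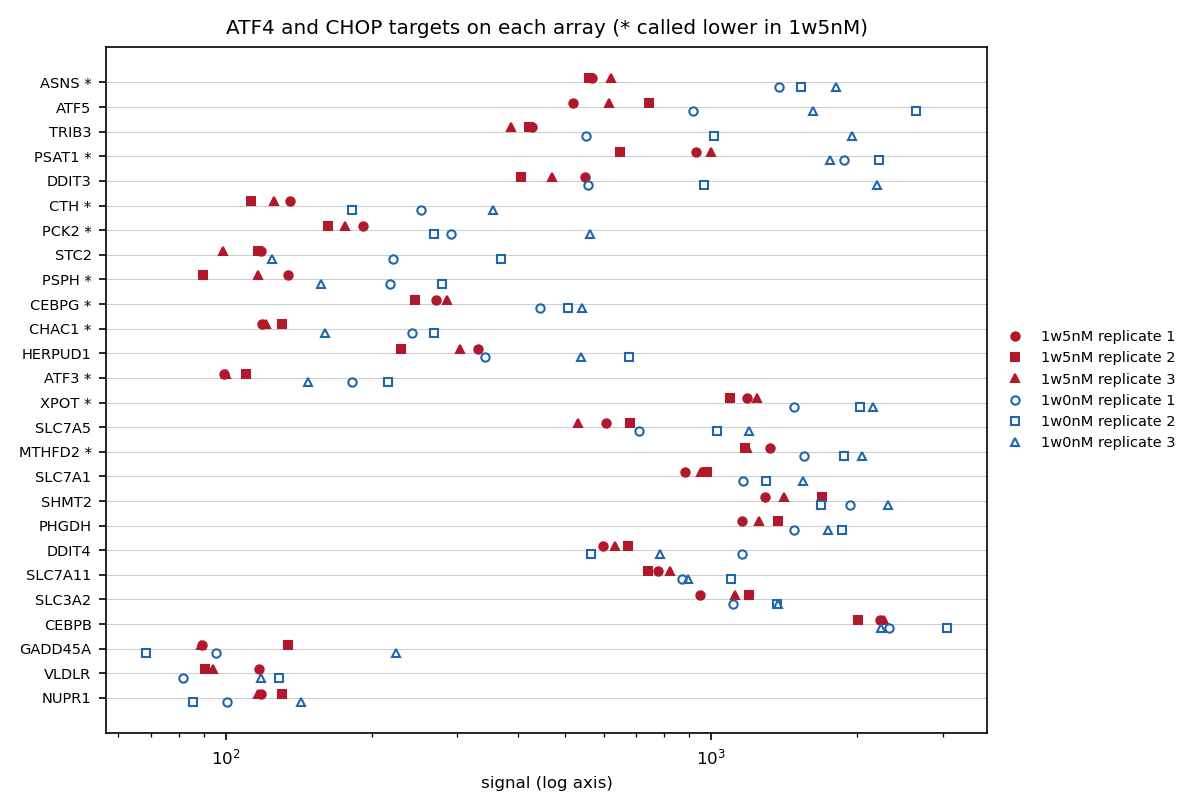
Signal (log axis) of the 26 measured ATF4 and CHOP targets on each array, 1w5nM filled red above 1w0nM open blue in each row, ordered by fold change with the largest fall at the top; asterisks mark the 10 genes called lower. The rotenone arrays lie close together and to the left in most rows, while vehicle signals of TRIB3, DDIT3 and ATF5 spread widely.

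Promoter windows of 3 of the called targets held the core of the C/EBP-ATF response element, through which ATF4 and CHOP act. They are shown because this element is the one the group is known for. The core searched was TGATGNAA, on both strands (TTNCATCA read from the other side), in RefSeq windows of 300 bases of which 250 precede the start. For each gene only the first window listed was used, so a promoter at another start of the gene is not described. Of the 26 targets, 21 had a window, and 6 windows held a match, among them 3 of the 9 of genes called lower and 3 of the 12 of genes not called. A match was held by 3.62% of all 35116 windows and by 1.82% of the 7483 tested genes with a window. The share was 7.94% of 126 genes called lower and 3.06% of 359 called higher. The 10 matches among genes called lower include the 3 targets shown, so that share is not separate from them. The 250 bases before the start are given from 5′ to 3′ on the strand of the gene (RefSeq, build GRCh38.p14), with the match in capitals. The ASNS stretch is chr7:97872409-97872658 on the minus strand, that of CHAC1 is chr15:40953221-40953470 on the plus strand and that of ATF3 is chr1:212565157-212565406 on the plus strand.
ASNS: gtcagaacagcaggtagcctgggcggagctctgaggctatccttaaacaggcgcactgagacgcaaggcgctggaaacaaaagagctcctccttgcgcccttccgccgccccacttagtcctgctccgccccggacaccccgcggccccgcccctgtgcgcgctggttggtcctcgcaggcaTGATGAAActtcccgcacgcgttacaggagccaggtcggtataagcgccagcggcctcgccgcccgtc
CHAC1: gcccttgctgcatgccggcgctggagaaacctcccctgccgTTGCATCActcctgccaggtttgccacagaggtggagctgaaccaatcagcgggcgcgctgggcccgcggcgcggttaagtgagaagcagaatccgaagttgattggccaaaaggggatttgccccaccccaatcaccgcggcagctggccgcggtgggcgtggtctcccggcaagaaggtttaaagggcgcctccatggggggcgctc
ATF3: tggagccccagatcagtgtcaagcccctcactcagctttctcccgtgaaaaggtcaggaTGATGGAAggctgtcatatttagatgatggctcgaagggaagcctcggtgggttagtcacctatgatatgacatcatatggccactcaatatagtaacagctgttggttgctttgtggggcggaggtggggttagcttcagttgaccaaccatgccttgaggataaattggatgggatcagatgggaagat
The match begins 68 bases before the start in ASNS, 209 in CHAC1 (on the opposite strand) and 191 in ATF3. A match describes letters in the window and not an occupied site.

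Of 20 amino acid transporters 4 were lower and 1 higher, with a median of -0.26. With 1w5nM replicate 2 left out, limma called 2 of them lower and 0 higher. SLC1A5, a glutamine carrier, had signals of 580.2, 760.3 and 674 on the 1w5nM arrays, against 941, 1264 and 871 on the 1w0nM arrays, and SLC1A3, a glutamate carrier of glia, had 113, 109.7 and 119 in 1w5nM, against 209.7, 254 and 167 in 1w0nM. The call held in 3 of the 6 fits with 1 array left out for SLC1A5 and in 2 of 6 for SLC1A3. Of 16 aminoacyl-tRNA synthetases 2 were lower, TARS1 (1.49-fold) and IARS1 (1.36-fold), with 0 higher and a median of -0.34, and without vehicle replicate 3 limma called 0 of them. Among 21 endoplasmic reticulum chaperones and sensors 1 was lower, the sensor ATF6, with 165, 189 and 170.2 in rotenone and 240.1, 249 and 288 in vehicle (limma adjusted p = 0.0112).

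Of 44 lysosomal hydrolases and proton pump subunits 7 were higher and 0 lower, with a median of 0.18. SMPD1, acid sphingomyelinase, had signals of 1293, 1524 and 1357 in 1w5nM and 375, 493 and 151 in 1w0nM. Its vehicle arrays spanned a 3.26-fold range with replicate 3 lowest, and the rise was 4.57-fold (limma adjusted p = 1.04e-04). GUSB, beta-glucuronidase, had signals of 860.1, 1036 and 899 on the 1w5nM arrays, against 599.7, 609 and 573 on the 1w0nM arrays, with the groups well apart at a small rise of 1.56-fold. APOE, the lipid carrier linked to Alzheimer disease, had 813, 1107 and 838 in 1w5nM, against 203, 312 and 339.8 in 1w0nM, a rise of 3.27-fold (limma adjusted p = 0.00137). G0S2, an inhibitor of triglyceride breakdown, had 269.5, 235 and 266 in rotenone and 37.1, 38.4 and 62.6 in vehicle, a rise of 5.73-fold (limma adjusted p = 4.02e-07). In 15 HLA class I and peptide-loading genes 6 were higher and 0 lower. HLA-C had signals of 1979, 2161 and 1876 in 1w5nM and 834, 671 and 1122 in 1w0nM and the loading factor TAPBP had signals of 677, 849.7 and 626 on the 1w5nM arrays, against 349.7, 358 and 290.2 on the 1w0nM arrays. Probe sets of HLA genes can bind transcripts of near-identical relatives, so which member moved is uncertain. Of 28 interferon-response genes 4 were higher and 0 lower. IFI6 had 147, 136 and 126 in 1w5nM, against 35.7, 34.8 and 37.9 in 1w0nM, with vehicle arrays close together and a rise of 3.76-fold (limma adjusted p = 8.70e-06), and ISG15 had 291, 376 and 308 in rotenone and 114, 130.2 and 164 in vehicle.

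Of 26 genes of the neuronal cytoskeleton, growth cone and synapse 6 were higher and 0 lower, with a median of 0.32. With 1w5nM replicate 2 left out, limma called 2 of them higher and 0 lower. SYT1, the calcium sensor of synaptic vesicles, had signals of 199, 222 and 229 in 1w5nM and 102, 67.6 and 84.3 in 1w0nM, a rise of 2.59-fold (limma adjusted p = 9.40e-06). NEFH, the heavy neurofilament chain, had signals of 386, 553 and 424 on the 1w5nM arrays, against 334, 258 and 155 on the 1w0nM arrays, and its call (limma adjusted p = 0.0434) held in 2 of the 6 fits with 1 array left out. STMN4, a tubulin-binding stathmin, had 484, 675 and 489 in 1w5nM, against 315, 107 and 226 in 1w0nM and rose 2.76-fold, while the growth cone collapsin partner CRMP1 had 171, 168 and 149 in rotenone and 69.8, 80.1 and 103 in vehicle. Of the 19 measured tubulins and tubulin cofactors 2 were higher, the cofactor TBCD (1.8-fold) and TUBG2 (1.57-fold), and 0 were lower, against 4.98% of all genes higher. At an unadjusted p under 0.05 there were 9 higher and 0 lower, and in the methods' t-test 8 higher and 1 lower. Log2 fold changes of this list lay between -0.36 and 1.20, with a median of 0.35. Limma called 3, 4 and 2 of its genes higher without vehicle replicates 1, 2 and 3 in turn, and 0 without 1w5nM replicate 2. TUBB3 did not pass the test (log2 0.59, limma adjusted p = 0.143).

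Genes of the respiratory chain, the target of rotenone, did not pass the test in complex I. Of 28 measured subunits limma called 0, with 2 higher and 2 lower at an unadjusted p under 0.05, and the methods' t-test gave 1 in each direction. Log2 fold changes of the subunits lay between -0.39 and 0.28, with a median of 0.01 as deposited, -0.05 after quantile normalization and -0.07 after median scaling. NDUFS6, a subunit of the matrix arm, had signals of 2944, 2984 and 2713 in 1w5nM and 2726, 2387 and 2387 in 1w0nM, and its groups overlapped. NDUFAB1, the mitochondrial acyl carrier protein, had signals of 2371, 2038 and 2479 on the 1w5nM arrays, against 3031, 2982 and 2547 on the 1w0nM arrays (limma adjusted p = 0.216). In complexes II to V 1 of 36 subunits was lower, COX7C, with 4044, 3422 and 2991 in 1w5nM, against 4306, 4679.8 and 4470.1 in 1w0nM, a fall of 1.3-fold whose call held in 2 of the 6 fits with 1 array left out. The adenine nucleotide carrier SLC25A4 was 1.36-fold lower (limma adjusted p = 0.0388). It was the only call among 20 measured genes of mitochondrial import, carriers and channels (5%, against 6.59% of all genes). Without vehicle replicate 3 its adjusted p in limma was 0.0719. With 1w5nM replicate 2 left out, limma called 0 genes of that list.

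In intermediary metabolism PFKL, a phosphofructokinase, was the only one of 23 glycolysis genes called (4.35%, against 6.59% of all genes). It had 707, 958 and 748 in rotenone and 493, 455 and 404 in vehicle and a rise of 1.78-fold (limma adjusted p = 0.00729). With 1w5nM replicate 2 left out, limma called 0 genes of the glycolysis list. In the TCA cycle list of 21 measured genes, OGDH and IDH2 were higher and the cytosolic IDH1 was lower (14.3% called, against 6.59% of all genes). IDH1 had signals of 1047, 833 and 890.1 in 1w5nM and 1508, 1496 and 1241 in 1w0nM. The list had 0 higher and 1 lower without vehicle replicate 3, and the same after median scaling. The exchange of 1w5nM replicate 2 and 1w50nM replicate 3 also gave 0 and 1. With 1w5nM replicate 2 left out the counts were 0 and 0. Of 25 hypoxia-inducible factor targets limma called 0, with 1 higher and 5 lower at an unadjusted p under 0.05 and 2 lower in the methods' t-test. In all, 20 had a log2 fold change below 0 (median -0.17). Limma called 3 of these targets lower without vehicle replicate 3 and 1 without replicate 2. It called 1 lower after quantile normalization and after median scaling, and 1 higher with the 2 array labels exchanged. LDHA, lactate dehydrogenase A, had signals of 5354, 5364 and 5411 on the 1w5nM arrays, against 5757, 5138 and 4167 on the 1w0nM arrays. Among 36 antioxidant and glutathione genes 4 were higher and 1 lower (13.9% called, against 6.59% of all genes). The counts were 2 and 2 after quantile normalization, 1 and 2 after median scaling, and 1 and 0 without 1w5nM replicate 2. With the 6 arrays alone they were 0 and 0. PRDX2, a peroxiredoxin, had 1571, 1930.4 and 1566 in 1w5nM, against 1219.9, 1273 and 1010.2 in 1w0nM and kept its call in all 6 fits with an array left out, while GCLM, a subunit of the first enzyme of glutathione synthesis, had 314, 201 and 281 in rotenone and 459, 485 and 355 in vehicle and was 1.65-fold lower (limma adjusted p = 0.0268).

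None of 16 Parkinson disease genes was called by limma, with 3 higher and 0 lower at an unadjusted p under 0.05 and 2 higher in the methods' t-test. UCHL1, an abundant neuronal deubiquitinase, had signals of 4370.0, 4322 and 4521 in 1w5nM and 4052, 4340.3 and 4035 in 1w0nM. Of 33 proteasome subunits 0 were called by limma, with 2 lower at an unadjusted p under 0.05 and 1 higher and 2 lower in the methods' t-test, and of 52 ribosomal proteins 1, RPS29, was 1.13-fold lower. Cytosolic heat shock proteins gave 0 of 20 in limma, with 2 higher at an unadjusted p under 0.05 and 2 in the methods' t-test. Without vehicle replicate 3, limma called 1 heat shock gene higher and 2 lower, and 1 Parkinson disease gene lower. Median log2 fold changes were 0.08 for the Parkinson genes, 0.02 for the proteasome and 0.08 for the heat shock proteins, beside 0.07 over all genes. After median scaling all 3 turned below 0 (-0.002, -0.06 and -0.001), and after quantile normalization the proteasome did (-0.05).

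Cell cycle genes depended on which vehicle arrays were used. Of 48 DNA replication genes 4 were higher (8.33%, near the 4.98% of all genes) and 0 lower, with a median of 0.33. CCNE1, the cyclin that starts S phase, had signals of 399, 412 and 412 on the 1w5nM arrays, against 240.0, 172 and 168 on the 1w0nM arrays, a rise of 2.14-fold (limma adjusted p = 0.00296). TYMS, thymidylate synthase, had 3323, 3245 and 3361 in 1w5nM, against 2553, 2274 and 1824 in 1w0nM, with a vehicle replicate 3 that was lowest. Without vehicle replicate 1 the list had 10 higher genes and a median of 0.50, and without replicate 3 it had 4 and a median of 0.10. With 1w5nM replicate 2 left out it had 1 higher gene. Of 41 genes of G2 and mitosis limma called 0, with 6 higher and 1 lower at an unadjusted p under 0.05 and 2 higher and 1 lower in the methods' t-test. Their median was 0.16 with all arrays, 0.33 without vehicle replicate 1 and -0.12 without replicate 3. Limma called 3, 2 and 0 of them higher without vehicle replicates 1, 2 and 3 in turn, and 0 lower each time. CDKN1B, the CDK inhibitor p27, was lower, with 152, 140.5 and 144 in rotenone and 274, 288 and 219.8 in vehicle, a fall of 1.78-fold (limma adjusted p = 0.00538), and its call held in all 6 fits with an array left out. CCND1, cyclin D1, was higher, with signals of 1605, 1914 and 1735 in 1w5nM and 1162, 1452 and 698 in 1w0nM (limma adjusted p = 0.0194).

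**Figure D4:**
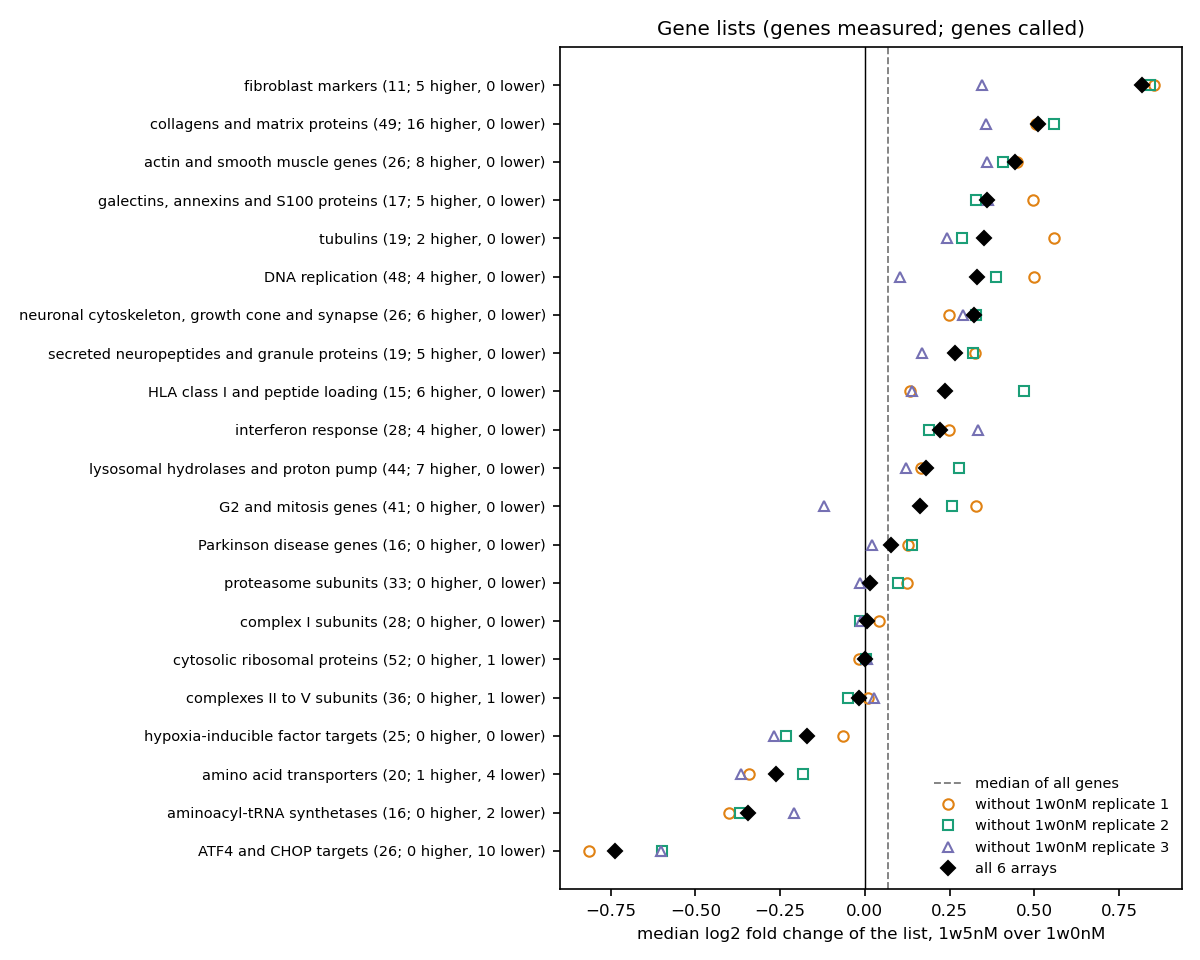
Median log2 fold change (1w5nM over 1w0nM) of 21 gene lists with all 6 arrays (black) and with each vehicle array left out (open symbols), with the genes measured and called in brackets; the dashed line is the median of all genes, 0.07. ATF4 and CHOP targets lie lowest at -0.74, and without vehicle replicate 3 the median of G2 and mitosis genes lies at -0.12, against 0.16 with all arrays.

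In the TGF-beta list 3 of 35 were higher (8.57%, near the 4.98% of all genes) and 0 lower, and the ligand TGFB1 had signals of 1439, 1721 and 1653 on the 1w5nM arrays, against 917, 953 and 535 on the 1w0nM arrays, a rise of 2.06-fold (limma adjusted p = 0.00142). In the WNT list 4 of 26 were higher (15.4%), with the inhibitor DKK2 at 228, 289 and 255 in 1w5nM, against 165, 96.2 and 108 in 1w0nM. Its relative DKK3 had 64.4, 60.6 and 69.8 in rotenone and 35.0, 38.6 and 13.9 in vehicle, with vehicle replicate 3 under the floor, and was 2.33-fold higher as a fold of mean log2 signals with that array set to 16. IGFBP4, which binds insulin-like growth factors, had signals of 1001, 1153 and 1041 in 1w5nM and 522, 529.9 and 201 in 1w0nM, and without vehicle replicate 3 its log2 change was 1.02, against 1.48 with it. The immediate early factor JUNB had signals of 394, 615 and 514 on the 1w5nM arrays, against 235, 193 and 218 on the 1w0nM arrays, a rise of 2.32-fold (limma adjusted p = 4.06e-04).

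The genes that the vehicle arrays decided were examined array by array. For each vehicle array, the 4 largest calls lost and the 4 largest gained when it was left out were taken. Without replicate 3, RGS16, PIK3C2B, PHLDA2 and EEF1A2 lost their call. PIK3C2B, a lipid kinase, had 172, 150.2 and 125 in 1w5nM, against 59.8, 128 and 30.1 in 1w0nM, so that replicates 2 and 3 lay on either side of replicate 1. CD74, the invariant chain of antigen presentation, had 73.0, 62.3 and 78.8 in rotenone and 16.1, 28.2 and 61.0 in vehicle and was not called with all arrays, while without replicate 3 it was called and its log2 change was 1.74, against 1.23 with all arrays. Without replicate 2, FN1, CSRP1, CRIP1 and ADRB3 were gained. CSRP1, a LIM protein of muscle, had signals of 959, 1144 and 1091 in 1w5nM and 538, 815 and 92.0 in 1w0nM, and CRIP1, a related LIM protein, had signals of 1238, 868 and 1005 on the 1w5nM arrays, against 668, 815 and 69.9 on the 1w0nM arrays. In both, as in FN1, replicate 3 was far below replicates 1 and 2. Without replicate 3 the log2 change of CRIP1 was 0.48, against 1.61 with all arrays and 2.25 without replicate 2. SELENBP1, a selenium-binding protein, had 222, 325 and 200.2 in 1w5nM, against 141, 42.3 and 172 in 1w0nM, and its call went with replicate 2, without which its log2 change was 0.65.

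**Figure D5:**
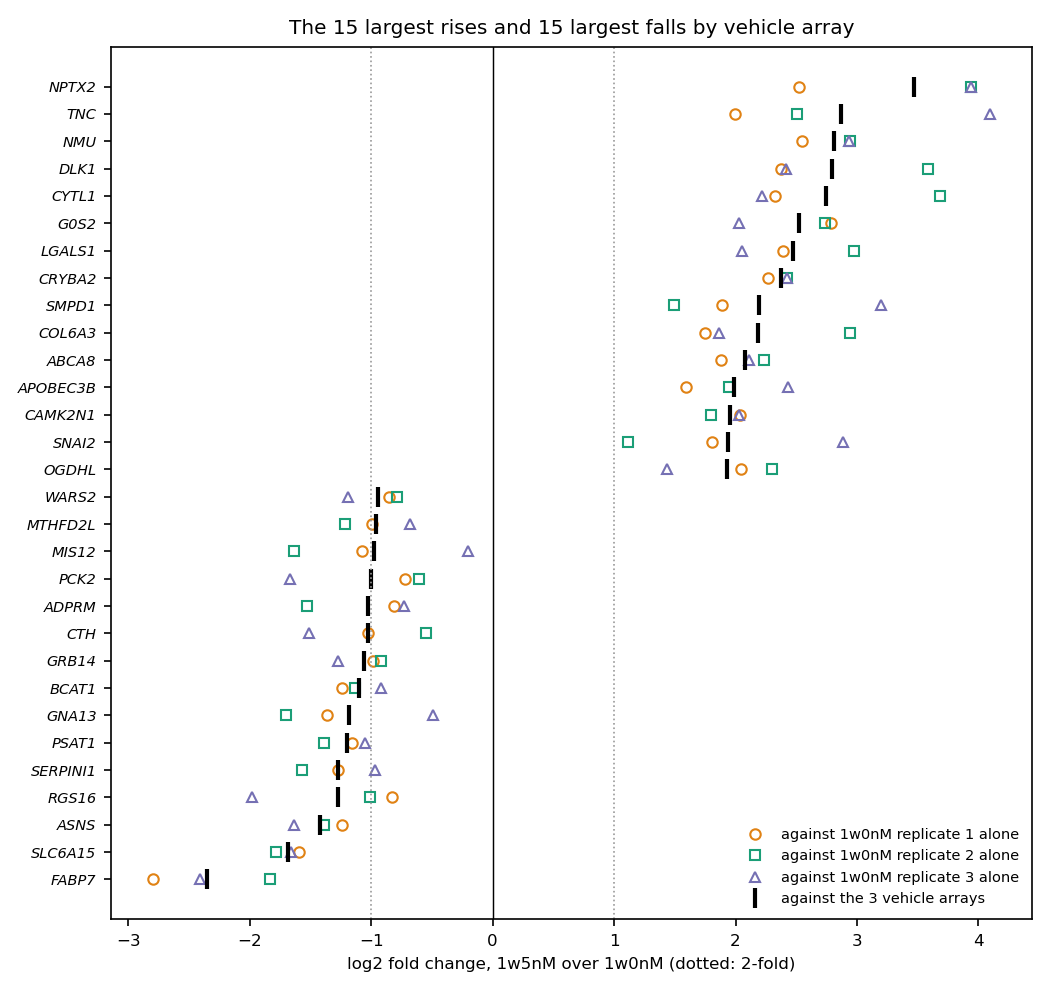
Log2 fold change of the 15 largest rises and the 15 largest falls against all 3 vehicle arrays (black bar) and against each vehicle array on its own (open symbols); dotted lines mark 2-fold. For NMU and SLC6A15 the 3 symbols lie together, while for NPTX2, TNC, DLK1, CYTL1, SMPD1, COL6A3, SNAI2, RGS16, GNA13, PCK2 and MIS12 they lie over 1 log2 unit apart.

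The 50 nM dose of the same week was measured against the same 3 vehicle arrays, so its values are not independent of those above and are set beside them only. For NPTX2 the mean signals were 248 at 5 nM, 193 at 50 nM and 21.7 in the 1-week vehicle. For FABP7 they were 39.0 at 5 nM, 38.8 at 50 nM and 203 in vehicle, and for ASNS they were 584 at 5 nM, 446 at 50 nM and 1574 in vehicle. SLC6A15 had 83.6 at 5 nM, 48.0 at 50 nM and 267 in vehicle. The 4-week vehicle means were 38.4 for FABP7, 666 for ASNS and 111 for SLC6A15, each closer to the 5 nM mean than to the 1-week vehicle mean.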

How the data were processed

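RNA of SK-N-MC cells was hybridised to Affymetrix human expression arrays, 3 for each of 6 groups. The values used were intensities on a linear scale, deposited by the authors as model-based expression indices computed in dChip, already normalized across arrays. Of 22283 probe sets, 68 were controls, 19065 listed a single gene, 1043 several and 2107 none. Signals below 16 were set to 16 and log2 was taken. Probe sets with a single gene were kept where 3 or more arrays reached 50, 1 per gene (that of highest mean log2 signal), leaving 9162 genes. Differences were tested with limma 3.58.1 in R 4.3.3 on all 18 arrays, with 12 residual and 5.71 prior degrees of freedom and Benjamini-Hochberg adjustment over all genes, and a gene was called at an adjusted p under 0.05. The fit was tested on simulated data in which all groups had the same spread, so it could not show the effect of the wider spread of 1w0nM. The methods' t-test compared the same 6 arrays at an unadjusted p under 0.05.

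Genes named are the 15 largest rises and falls among calls, up to 4 called genes of each list (2 of highest mean signal where none was called), reference genes, the genes that each vehicle array decided (up to 4 lost and 4 gained) and the measured ATF4 and CHOP targets. CD99, NKX2-2, COL3A1, LUM, FAP, MAP2 and NEFL were named outside this rule, after their values were seen. Members and lists were chosen with earlier results of these data known. Alternatives were other floors, filters, probe-set rules, scalings, sample sets and fits, each array left out, and each vehicle array alone.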

Additional observations from a re-analysis of the deposited data

Results flagged for a closer look

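A signal appeared in data that the comparison did not use. Probe sets that list several genes or none were left out of the test by gene. Fitted in the same way, 32 of them were at least 2-fold different between 1w5nM and 1w0nM at an adjusted p under 0.05 in limma. Of those listing several genes, 10 were higher and 2 lower, and of those listing none, 20 were higher and 0 lower. No gene is named from these probe sets.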

How the results depend on the processing

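The counts of calls (456 higher and 148 lower, 107 and 12 of them at least 2-fold) depended most on the arrays used and on how their spread was estimated. With the 6 arrays compared alone they were 32 higher and 4 lower (31 and 4 at least 2-fold), with the 9 arrays of 1 week 212 and 58, and with array weights 195 and 62. Quantile normalization gave 292 lower genes and median scaling 289, with 21 at least 2-fold lower in each, every probe set on its own gave 258 lower (164 at least 2-fold higher and 20 lower), and adding the floor to each signal in place of flooring left 6 at least 2-fold lower. The methods' t-test gave 854 higher and 451 lower genes unadjusted, and 4 and 3 after Benjamini-Hochberg adjustment, of which 3 and 0 were at least 2-fold. With 1 array left out, counts ran between 151 and 642 higher, 41 and 417 lower, 64 and 199 at least 2-fold higher and 7 and 46 at least 2-fold lower. The lowest counts came without 1w5nM replicate 2, the highest counts of higher genes without vehicle replicate 2 and of lower genes without vehicle replicate 3. Against vehicle array 1 alone 170 were higher and 34 lower, against array 2 alone 313 were lower (196 and 91 at least 2-fold), and against array 3 alone 1891 were higher and 355 lower (747 and 68 at least 2-fold). Against the 4-week vehicle arrays 0 were called in either direction by limma, with 256 at an unadjusted p under 0.05. The cause of these changes was not tested.

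Against the 4-week vehicle arrays the log2 change of 26 called genes named here changed sign, to negative values for NPTX2 -0.27, TNC -0.15, CYTL1 -0.13, G0S2 -0.17, LGALS1 -0.13, COL6A3 -0.30, SNAI2 -0.0313, TIMP1 -0.18, COL1A2 -0.053, PHLDA2 -0.091, NEFH -0.12, HES1 -0.051, TGFB1 -0.11, DKK3 -0.088, DKK2 -0.14, KRT8 -0.071, PIK3C2B -0.18, and to positive values for FABP7 0.011, SERPINI1 0.18, GRB14 0.41, ADPRM 0.031, MTHFD2L 0.097, ATF3 0.083, SLC1A3 0.19, SLC25A4 0.13, CHAC1 0.15. PTPRC, not called with all arrays, had a log2 change between -1.23 and 0.80 with 1 array left out, was called lower without vehicle replicate 3 (-1.23) and against vehicle array 2 alone (-1.48). Same-numbered arrays did not deviate together (correlations of -0.28, -0.04 and -0.18 across genes), so the numbers were not taken as pairs. A fit with the replicate block gave 408 higher and 113 lower genes, and 500 of the 604 calls were shared. The other floors, filters, probe-set averaging, the fit without an intensity trend and the exchange of labels kept all 4 counts within 1.5 times, apart from those given above. A signal near the floor limits fold changes of dim genes.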
